A study of Mus musculus with 2 samples.

Results

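The genes of MHC class II presentation were followed through 2 single-cell RNA libraries of cells sorted as tumor-associated neutrophils (TANs). The members were the 7 genes H2-Aa, H2-Ab1, H2-Eb1, Cd74, H2-DMa, H2-DMb1 and Ciita, found by their symbols among the 31053 genes of the count matrix. All 7 had UMIs (unique molecular identifiers, 1 per captured RNA molecule) in both libraries.

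CD11b+Ly6G+ cells were sorted from subcutaneous Lewis lung carcinoma (LLC) tumors grown in Smad3-WT mice, which carry both copies of Smad3, and in Smad3-KO mice, whose alleles have exon 8 deleted and exon 7 disrupted. The mice were on a C57BL/6J background, of both sexes and 8 to 12 weeks old. Cells of 8 tumors were pooled for each genotype, and each pool gave 1 library made with a 5′ kit. With 1 library per genotype there was no replicate error, no test of genotype was possible, and each interval given with a value covers counting error only, at the 95% level.

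Class II molecules display peptides of ingested proteins to CD4 T cells, and they are made mainly by B cells, dendritic cells and macrophages. The alpha chain encoded by H2-Aa pairs with the beta chain of H2-Ab1 to form I-A, and H2-Eb1 encodes the beta chain of I-E. Cd74, the invariant chain, fills the groove of new molecules, the H2-DM heterodimer of H2-DMa and H2-DMb1 exchanges the last piece of Cd74 for peptide, and Ciita is the coactivator that turns on this set of genes.

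The study's filter on cells kept 3520 cells of Smad3-WT (12176201 UMIs, median 1318.5 per cell) and 2433 of Smad3-KO (4146792 UMIs, median 1199). Its upper limit on UMIs took out 382 cells of Smad3-WT and 0 of Smad3-KO. For its own analysis the paper also selected cells by neutrophil markers (S100a9, S100a8, Csf3r and Il1rn), a step not applied here. The libraries shared 73 barcodes, and in 46 of these the Smad3-KO barcode held 0.957% to 1.22% of the UMIs of the Smad3-WT barcode. Of the filtered cells, 24 Smad3-WT and 46 Smad3-KO cells had a shared barcode. Cells were clustered without any class II gene and named by markers. The 24 Smad3-KO cells that fell in the carcinoma-like cluster went against that name, since 20 of them had a shared barcode and their median depth was 617 against 13175.5 UMIs, and their values are not read here. B cell-like, T or NK-like, dendritic-like, macrophage-like and fibroblast-like cells were all present after the neutrophil sort. UMIs from a 5′ kit are counted near the start of Smad3, far from the deleted exon 8, so they check nothing about genotype.

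Of the 6 members placed on the mm10 build here, 5 lie close together on chromosome 17. In order these are H2-DMa (34119541 to 34139101, plus strand), H2-DMb1 (34153072 to 34160230, plus), H2-Ab1 (34257689 to 34269419, plus), H2-Aa (34282744 to 34287823, minus) and H2-Eb1 (34305867 to 34316674, plus). Ciita lies on chromosome 16 (10480059 to 10528418, plus). The promoters of class II genes share a module of boxes, among them the X box bound by the RFX complex and the Y box bound by NF-Y, on which Ciita assembles. RefSeq promoter windows on GRCm38.p6, from 250 bases before to 50 bases after the start, were found for 4 of the 7 members (H2-Aa, H2-Eb1, H2-DMa and H2-DMb1). The 100 bases from 130 to 31 bases before the start are printed for the pair of chains whose levels parted most, H2-Aa and H2-Eb1, and for H2-DMb1 and its close copy H2-DMb2. They are 5′ to 3′ on the gene's strand, and capitals mark the letters TGATTGG, a form of the Y box, and the letters AACNNATG, a core of the X box. The letters were chosen after the sequences were seen.
H2-Aa: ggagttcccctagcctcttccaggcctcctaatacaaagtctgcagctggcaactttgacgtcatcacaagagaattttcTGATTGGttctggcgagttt
H2-Eb1: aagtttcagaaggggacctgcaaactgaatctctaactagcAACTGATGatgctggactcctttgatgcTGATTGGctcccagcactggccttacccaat
H2-DMb1: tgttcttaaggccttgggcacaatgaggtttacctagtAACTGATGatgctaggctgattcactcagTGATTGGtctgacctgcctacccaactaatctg
H2-DMb2: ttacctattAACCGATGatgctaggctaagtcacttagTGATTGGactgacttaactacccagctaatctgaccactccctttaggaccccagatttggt

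These stretches are chr17:34287854-34287953 (minus strand) for H2-Aa, chr17:34305737-34305836 (plus) for H2-Eb1, chr17:34153061-34153160 (plus) for H2-DMb1 and chr17:34145119-34145218 (plus) for H2-DMb2. H2-Eb1 and H2-DMb1 held both motifs, spaced 28 and 29 bases from start to start, and in H2-DMb2 the spacing was 29 bases. H2-Aa held TGATTGG at 50 bases before its start without the AACNNATG letters in front of it. Other forms of the X box were not searched for, so this does not show that H2-Aa lacks the box. Neither window of H2-DMa held TGATTGG on the gene's strand. The AACNNATG letters were recorded only in front of a TGATTGG, so this does not show that H2-DMa lacks either box. Counted on both strands, TGATTGG was in 7.82% and AACNNATG in 8.86% of the 32851 promoter windows, and 12 windows (0.0365%) held them in this order 25 to 35 bases apart. These are letters of the reference, and the sequence carried by these mice was not read.

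Levels are CPM, the UMIs of a gene summed over the cells of a class, per 1000000 UMIs of those cells. Since 5′ UMIs do not depend on gene length but capture differs between genes, levels are compared between libraries and classes, not between genes. The 7 members together held 7286 CPM (interval 7238 to 7334) in Smad3-WT cells and 10921 CPM (10821 to 11022) in Smad3-KO cells, a ratio of 1.499. With no filter on cells the ratio was 2.66. The members did not share this ratio. Ciita stood at 13.1 against 53.1 CPM (ratio 4.06, interval 3.30 to 5.01), H2-Aa at 1225 against 3644 CPM (2.97, 2.91 to 3.04) and H2-Eb1 at 897 against 90.7 CPM (0.101, 0.0909 to 0.112). H2-Ab1 and Cd74 were both 1.41 times as high in Smad3-KO, while H2-DMa differed by less than its counting error (1.06, 0.971 to 1.16).

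Different cells carried class II in the 2 libraries. In Smad3-WT, macrophage-like cells were 9.29% of cells and held 48.3% of all member UMIs, dendritic-like cells held 20.1% and monocyte-like cells 17.3%. In Smad3-KO, B cell-like cells were 22.9% of cells and held 50.5%, dendritic-like cells 23.8% and macrophage-like cells 7.91%. The Smad3-WT library had 2 B cell-like cells, so the levels over all cells cannot tell a change in the makeup of cells from a change within them. The macrophage share depended on how clusters were formed, and was 12.5% when class II genes were kept for clustering, where 185 rather than 327 Smad3-WT cells were named macrophage-like. The plot of member levels by class shows where each gene was high.

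**Figure D1:**
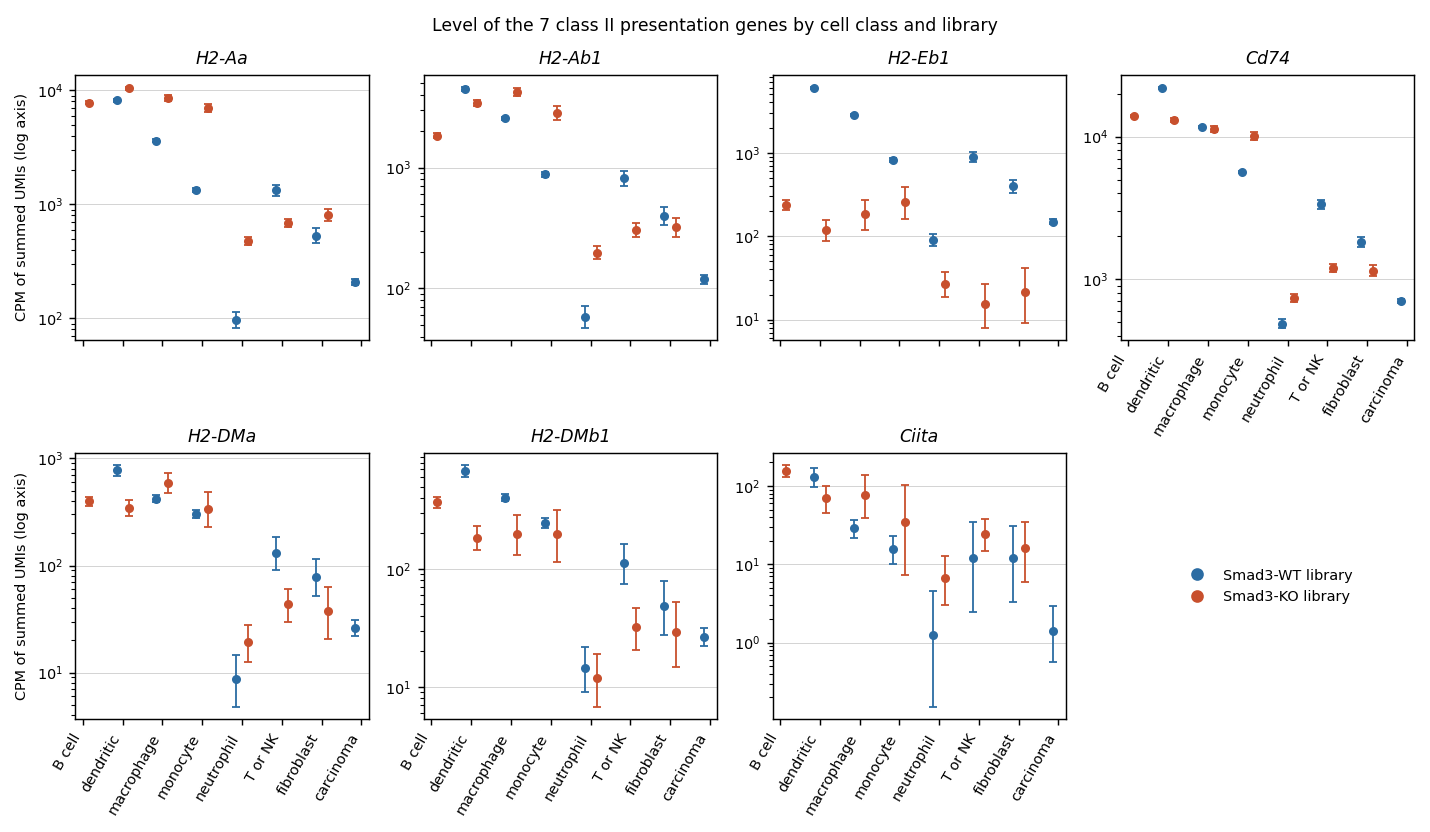
Levels of each of the 7 members (CPM, log axis) in each cell class, with 1 point for the Smad3-WT library and 1 for the Smad3-KO library and bars for the 95% counting interval; pools under 30 cells are left out. Points of H2-Eb1 part in every class drawn for both libraries, as at 5954 and 118 CPM in dendritic-like cells, and Cd74 lies close in macrophage-like cells, at 11685 and 11320 CPM, but not in dendritic-like cells, at 21964 and 13094 CPM.

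H2-Aa, the alpha chain of I-A, differed more between libraries in monocyte-like cells than in macrophage-like or dendritic-like cells, a difference that was not tested. It measured 8164 CPM in Smad3-WT and 10462 CPM in Smad3-KO dendritic-like cells, 3631 and 8617 CPM in macrophage-like cells, and 1334 and 6954 CPM in monocyte-like cells. The ratios of these 3 classes were 1.28 (interval 1.22 to 1.34), 2.37 (2.23 to 2.52) and 5.21 (4.75 to 5.71). Over the alternatives they ran from 0.957 to 1.32, from 1.63 to 3.63 and from 3.48 to 5.48, so in dendritic-like cells the direction turned in 1 of them. Among 6722 genes with at least 20 UMIs in monocyte-like cells, its ratio was the 58th highest. The Smad3-KO monocyte-like value came from 596 UMIs in 38 cells. Of these cells 10 had at least 10 UMIs of H2-Aa, and the highest held 147. The counting interval does not cover such differences between cells. In Smad3-KO B cell-like cells H2-Aa stood at 7822 CPM (7642 to 8005). A high ratio was not limited to monocyte-like cells. Without shared barcodes it was 4.98 (4.17 to 5.97) in neutrophil-like cells and 0.530 (0.462 to 0.610) in T or NK-like cells. In a cluster with markers of both monocytes and macrophages it was 20.1 (17.2 to 23.5), from 25 Smad3-KO cells.

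H2-Ab1, its beta chain, had lower ratios. Its ratios were 0.762 (0.710 to 0.818) in dendritic-like, 1.65 (1.51 to 1.79) in macrophage-like and 3.22 (2.80 to 3.69) in monocyte-like cells, each below that of H2-Aa. The quotient of H2-Ab1 to H2-Aa UMIs was 0.653 over all Smad3-WT cells and 0.310 over all Smad3-KO cells. That quotient was lower in Smad3-KO in each class with both libraries, at 0.549 against 0.326 in dendritic-like, 0.707 against 0.491 in macrophage-like and 0.660 against 0.408 in monocyte-like cells. The lowest quotient among the classes and dendritic subtypes was that of Smad3-KO mature dendritic-like cells, at 0.120 (0.0949 to 0.150).

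H2-Eb1, the beta chain of I-E, was lower in Smad3-KO in each class with at least 30 cells of both libraries. In dendritic-like, macrophage-like and T or NK-like cells it had the ratio farthest from 1 of the members. H2-Ea, the gene of its partner chain, was absent from the matrix. These are thus RNA levels of 1 chain, and whether any of these cells made I-E molecules was not measured. UMIs count reads mapped to the reference genome, and whether reads of H2-Eb1 mapped equally well in both libraries was not tested, so a low value here is a low count of mapped UMIs. It measured 5954 CPM in Smad3-WT and 118 CPM in Smad3-KO dendritic-like cells, 2810 and 183 CPM in macrophage-like cells, 824 and 257 CPM in monocyte-like cells, and 894 and 15.3 CPM in T or NK-like cells. In the 556 Smad3-KO B cell-like cells, where H2-Aa stood at 7822 CPM, H2-Eb1 was at 239 CPM (209 to 273). The ratios were 0.0198 (0.0145 to 0.0265) in dendritic-like, 0.0651 (0.0425 to 0.0956) in macrophage-like and 0.312 (0.195 to 0.474) in monocyte-like cells. Counted from the lowest ratio, H2-Eb1 was number 2 of 4954 genes in dendritic-like cells, 17 of 7709 in macrophage-like cells and 432 of 6722 in monocyte-like cells. The monocyte value rested on few counts, 22 UMIs in 38 Smad3-KO cells, and ranged from 0.0647 to 0.352 over the alternatives tried.

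The quotient of H2-Eb1 to H2-Aa UMIs within a cell class does not depend on library totals. It was 0.732 over all Smad3-WT cells and 0.0249 over all Smad3-KO cells. Within Smad3-WT it was 0.729 (0.693 to 0.768) in dendritic-like, 0.774 (0.747 to 0.801) in macrophage-like, 0.617 (0.577 to 0.661) in monocyte-like and 0.923 (0.730 to 1.17) in neutrophil-like cells. Within Smad3-KO it was 0.0113, 0.0212, 0.0369 and 0.0552 in the same classes, and 0.0306 in B cell-like cells. The highest Smad3-KO value of these, 0.0552, lay below the lowest Smad3-WT value, 0.617.

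Single cells showed the same split. Among cells with at least 10 UMIs of H2-Aa, 350 of 353 Smad3-WT cells (99.2%) had a UMI of H2-Eb1, against 174 of 513 Smad3-KO cells (33.9%). These sets differed in makeup, with 1 B cell-like cell in Smad3-WT and 357 in Smad3-KO. Within classes the counts were 61 of 62 and 23 of 69 in dendritic-like cells and 161 of 163 and 10 of 24 in macrophage-like cells. In monocyte-like cells they were 71 of 71 and 5 of 10. At least 1 UMI of H2-Eb1 per 2 UMIs of H2-Aa was reached in 269 of the 353 Smad3-WT cells and in 0 of the 513 Smad3-KO cells. The highest H2-Eb1 count of such a cell was 127 UMIs in Smad3-WT and 20 UMIs in Smad3-KO. That Smad3-KO cell was a conventional type 2 dendritic-like cell and held 20 of the 25 H2-Eb1 UMIs of its 9-cell group.

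**Figure D2:**
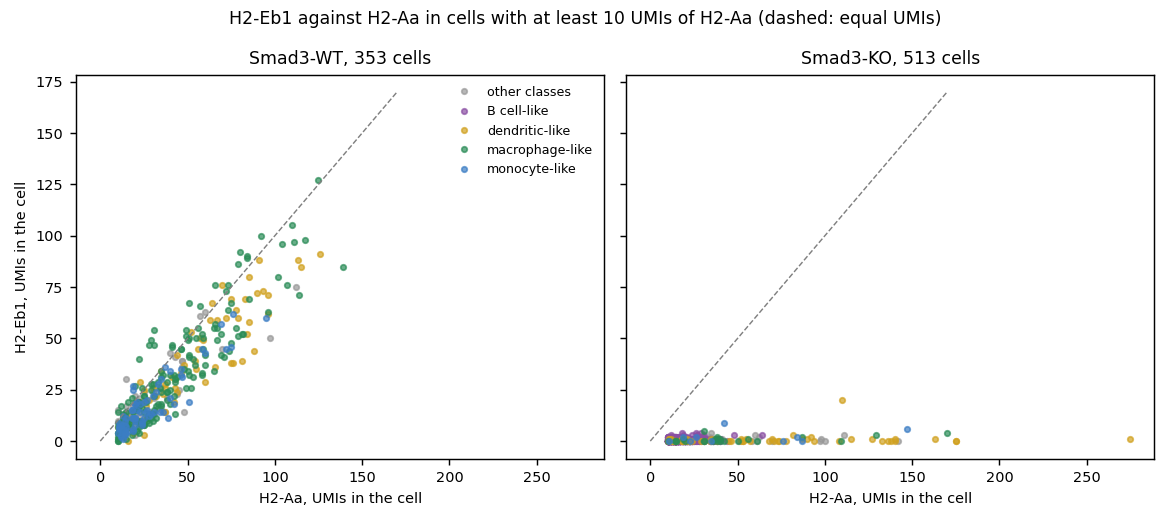
UMIs of H2-Eb1 (vertical axis) against UMIs of H2-Aa (horizontal axis) in each filtered cell with at least 10 H2-Aa UMIs, 353 Smad3-WT and 513 Smad3-KO cells, colored by class, with a dashed line where both counts are equal. The Smad3-WT cells climb with H2-Aa up to 127 UMIs of H2-Eb1, and the Smad3-KO cells lie along the bottom, none above 20 UMIs.

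The genes around H2-Eb1 on chromosome 17 had ratios in both directions. Over the 3 monocyte-like and macrophage-like clusters together (1105 and 117 cells), the log2 ratio of Smad3-KO to Smad3-WT was −2.99 for H2-Eb1, 1.87 for H2-Aa and 1.25 for H2-Ab1, with a median of 0.12 over all 9239 genes. The immunoproteasome and peptide transporter genes between H2-DMb1 and H2-Ab1 had log2 ratios of 0.25 (Psmb9), 0.50 (Tap1), 0.01 (Psmb8) and 0.07 (Tap2). H2-DMb2, which lies between H2-DMa and H2-DMb1, was at 3.30. Outside the stretch from H2-DMa to H2-Eb1, the class I gene H2-K1 was at 0.96 on the H2-DMa side. On the far side of H2-Eb1 the nearest gene measured, Gpsm3, was at −0.59 and the complement gene C4b at 2.12. Agpat1, also on the far side, was at −2.31, but from 1 Smad3-KO UMI, with an interval of its ratio from 0.00338 to 0.764.

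Cd74, the invariant chain, differed between libraries by less than H2-Aa, H2-Ab1 and H2-Eb1 did in macrophage-like cells. It measured 11685 CPM in Smad3-WT and 11320 CPM in Smad3-KO there, a ratio of 0.969 whose interval of 0.920 to 1.02 held 1. In monocyte-like cells it measured 5670 and 10080 CPM (1.78, 1.66 to 1.91), and in dendritic-like cells 21964 and 13094 CPM (0.596, 0.576 to 0.617). The direction thus turned between classes, and that difference between classes was not tested. In macrophage-like cells the ratio ran from 0.746 to 1.57 over the alternatives. Cd74 stood at 14040 CPM in Smad3-KO B cell-like cells.

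H2-DMa and H2-DMb1, the 2 chains of the peptide exchanger, were lower in Smad3-KO dendritic-like cells, at 774 against 344 CPM (0.445, 0.361 to 0.545) and 675 against 185 CPM (0.274, 0.209 to 0.356). With class II genes kept for clustering these ratios were 0.926 and 1.19, so the direction of H2-DMb1 turned. That setting named 30 Smad3-WT and 64 Smad3-KO cells dendritic-like, against 85 and 106 here, so it compares a different set of cells. In macrophage-like cells they went apart, with H2-DMa at 422 against 591 CPM (1.40, 1.11 to 1.75) and H2-DMb1 at 404 against 197 CPM (0.488, 0.323 to 0.711). H2-DMb1 has a near copy, H2-DMb2, which encodes another DM beta chain, and reads of such a pair may be assigned to either, so their separate counts are uncertain. H2-DMb2 took 9.06% of the UMIs of both genes in Smad3-WT and 62.2% in Smad3-KO macrophage-like cells, 8.58% and 52.8% in monocyte-like cells, and 35.1% and 61.7% in dendritic-like cells. In Smad3-KO B cell-like cells its share was 59.5%.

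Summed over both copies, the DM beta level in macrophage-like cells was 444 CPM in Smad3-WT and 521 CPM in Smad3-KO, a ratio of 1.17 with an interval (0.913 to 1.49) that held 1. In conventional type 2 dendritic-like cells it was 1405 and 1456 CPM, and in mature dendritic-like cells 151 and 150 CPM. The lower H2-DMb1 level of Smad3-KO macrophage-like cells was therefore not seen in the sum. In all dendritic-like cells the sum was still lower, at 1040 against 483 CPM (0.464, 0.389 to 0.552).

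Ciita, the coactivator, had few UMIs. It measured 28.6 CPM (57 UMIs) in Smad3-WT and 77.4 CPM (11 UMIs) in Smad3-KO macrophage-like cells, a ratio of 2.70 (1.28 to 5.21). In dendritic-like cells it was at 130 and 69.3 CPM (0.534, 0.324 to 0.862). Monocyte-like cells held 26 and 3 UMIs, too few to read, since the interval of the ratio ran from 0.433 to 7.29. The highest level of the Smad3-KO classes was that of B cell-like cells, at 156 CPM (131 to 183).

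**Figure D3:**
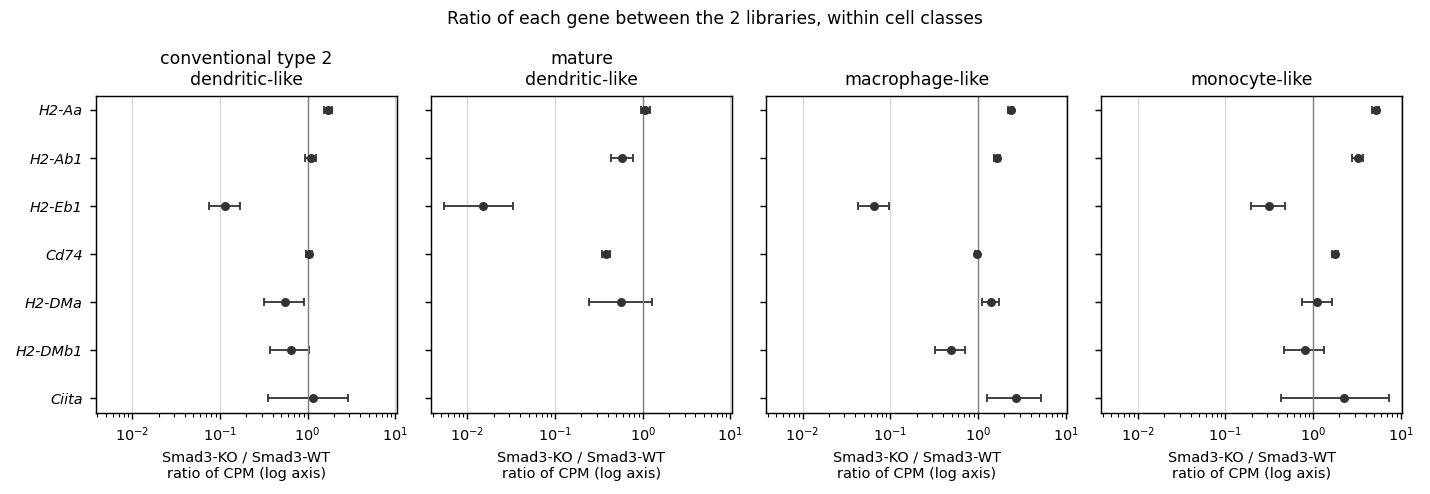
Ratio of Smad3-KO to Smad3-WT level (log axis) of each member in conventional type 2 dendritic-like, mature dendritic-like, macrophage-like and monocyte-like cells, with bars for the 95% counting interval and a line at 1; members under 20 UMIs in a class are left out. H2-Eb1 lies lowest in each panel, at 0.115, 0.0150, 0.0651 and 0.312, and H2-Aa lies above 1 in each, at 1.71, 1.07, 2.37 and 5.21, with an interval that holds 1 in mature cells.

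A change of at least 2-fold was common among all genes in these comparisons. Over all cells, H2-Aa and Ciita were at least 2-fold higher in Smad3-KO (16.4% of 12612 genes) and H2-Eb1 at least 2-fold lower (14.8%). In dendritic-like cells, 3 members (H2-Eb1, H2-DMa and H2-DMb1) were at least 2-fold lower in Smad3-KO, where 8.82% of the 4954 genes with at least 20 UMIs were, and 0 members were at least 2-fold higher, where 11.3% of genes were. In macrophage-like cells H2-Aa and Ciita were at least 2-fold higher (14.8% of 7709 genes), and H2-Eb1 and H2-DMb1 at least 2-fold lower (13.4%). In monocyte-like cells H2-Aa, H2-Ab1 and Ciita were at least 2-fold higher (16.1% of 6722 genes) and H2-Eb1 at least 2-fold lower (15.4%). Over the 3 monocyte and macrophage clusters together, H2-Aa, H2-Ab1 and Ciita were at least 2-fold higher (14.4% of 9239 genes) and H2-Eb1 at least 2-fold lower (10.2%). H2-Eb1 was the 1 member past the fold in the same direction in dendritic-like, macrophage-like and monocyte-like cells.

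Dendritic-like cells were not the same mixture in the 2 libraries. Of 85 Smad3-WT cells, 50 were conventional type 2-like (Cd209a, Mgl2), 28 mature (Ccr7, Fscn1), 4 conventional type 1-like (Xcr1, Clec9a) and 3 plasmacytoid-like (Siglech). Of 106 Smad3-KO cells, 9, 44, 29 and 24 were of these subtypes. The member sum was 42140 CPM in Smad3-WT and 27686 CPM in Smad3-KO over the whole class, a ratio of 0.657 (0.641 to 0.673). Within the conventional type 2-like cells it was 51458 and 52389 CPM, a ratio of 1.02 (0.965 to 1.07), and within the conventional type 1-like cells 45263 and 45680 CPM, although that rested on 4 Smad3-WT cells. In mature cells the sum was lower in Smad3-KO, at 19318 and 9841 CPM (0.509, 0.475 to 0.546). In plasmacytoid-like cells it was higher in Smad3-KO, at 6237 and 17420.5 CPM (2.79, 2.13 to 3.74), from 3 Smad3-WT cells.

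In conventional type 2-like cells, whose known task is to present to CD4 T cells, 4 members had ratios whose interval held 1. H2-Ab1 stood at 5905 and 6400 CPM (1.08, 0.928 to 1.26), Cd74 at 26543 and 27431 CPM (1.03, 0.960 to 1.11) and Ciita at 148 and 169 CPM, with 5 UMIs in Smad3-KO, while H2-DMb1 was at 893 and 576 CPM (0.645, 0.370 to 1.05). H2-DMa was lower, at 1034 and 576 CPM (0.557, 0.320 to 0.907). H2-Aa was higher in Smad3-KO, at 9565 and 16391 CPM (1.71, 1.55 to 1.89), and H2-Eb1 lower, at 7370 and 847 CPM (0.115, 0.0742 to 0.170). H2-Eb1 was the 1 member past 2-fold there, where 18.4% of 2152 genes were at least 2-fold lower. B cell markers summed to 7.06 CPM (2 UMIs) in Smad3-WT and 33.9 CPM (1 UMI) in Smad3-KO cells of this subtype, and to 9.44 and 249 CPM over the whole dendritic-like class, with 2 and 10 of the 10 detected, and their part in the class values was not tested.

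Mature dendritic-like cells, which migrate to lymph nodes through the homing receptor Ccr7, had the lowest Ciita among dendritic subtypes, with 1 UMI in each library. H2-Aa was at 4827 CPM in Smad3-WT and 5163 CPM in Smad3-KO (1.07, 0.954 to 1.20). H2-Ab1 (1079 and 620 CPM), Cd74 (10307 and 3888 CPM) and H2-Eb1 (2849 and 42.7 CPM) were lower in Smad3-KO. Of the 5 members with at least 20 UMIs, H2-Eb1 and Cd74 were at least 2-fold lower, as were 12.6% of 1687 genes. Ccr7, the defining marker, was itself at 2262 CPM in Smad3-WT and 926 CPM in Smad3-KO, and its part in the class II values was not tested.

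Macrophage-like cells (C1qa, C1qb, Mrc1) had a member sum of 21547 CPM in Smad3-WT and 25216 CPM in Smad3-KO. The ratio of 1.17 (1.13 to 1.21) turned to 0.911 when each cell was thinned to 500 UMIs and to 0.905 as a mean over cells, so its direction rested on how cells were weighted. Smad3-WT macrophage-like cells had a median depth of 5824 UMIs and Smad3-KO ones 2570.5. Monocyte-like cells (Ccr2, Ly6c2, Vcan) had 9270 and 20698 CPM, a ratio of 2.23 (2.12 to 2.35), which stayed above 1 in each of the 12 alternatives that gave a value (1.73 to 2.43). The 2 highest of the 38 Smad3-KO monocyte-like cells held 40.0% of that library's member UMIs in the class. A further cluster with markers of both monocytes and macrophages had 2553 CPM in 263 Smad3-WT cells and 19432 CPM in 25 Smad3-KO cells.

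Markers of other cells also differed between the libraries in these classes, and not only those of cells rich in class II. The 8 T cell markers summed to 45.2 and 401 CPM in macrophage-like and 22.9 and 268 CPM in monocyte-like cells. The 11 neutrophil markers summed to 3786 and 5709 CPM in macrophage-like cells, but to 8811 and 4690 CPM in monocyte-like cells. The 10 B cell markers summed to 12.6 CPM in Smad3-WT and 246 CPM in Smad3-KO macrophage-like cells, with 3 and 10 of the 10 detected, and to 5.42 and 105 CPM in monocyte-like cells, with 2 and 4 detected. In B cell-like cells of Smad3-KO they summed to 12924 CPM. The 15 dendritic markers summed to 180 and 584 CPM in macrophage-like cells, with 11 and 8 detected and Flt3 and Xcr1 at 0 in both libraries, and to 62.7 and 397 CPM in monocyte-like cells, with 12 detected in each. The part of B cell or dendritic RNA in the higher I-A levels was not tested. Without the shared barcodes, the ratio of H2-Aa was 2.38 in macrophage-like and 5.23 in monocyte-like cells.

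B cell-like cells were compared among themselves, within Smad3-KO, since the Smad3-WT library held 2 of them. The largest cluster, 472 cells led by Cd79a and with the naive B cell genes Ighd and Fcer2a, had H2-Aa at 9332 CPM, Cd74 at 15523 CPM and Ciita at 188 CPM. The 42 cells led by Jchain had H2-Aa at 3758 CPM, Cd74 at 12062 CPM and Ciita at 77.8 CPM. A further 42 cells led by Ighv1-81 had H2-Aa at 4876 CPM, Cd74 at 6956 CPM and Ciita at 69.3 CPM (6 UMIs). The median depths of these 3 clusters were 1149, 3476 and 2083.5 UMIs. How many of all genes differed as much between them was not counted. H2-Eb1 was low in each, at 250, 261 and 116 CPM.

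In neutrophil-like cells, the target of the sort, class II UMIs were scarce and held by few cells. The member sum was 757 CPM (715 to 800) in 1820 Smad3-WT cells and 1484 CPM (1420 to 1550) in 1097 Smad3-KO cells, a ratio of 1.96. At least 1 member UMI was found in 22.3% of the Smad3-WT cells, whose median depth was 740 UMIs, and in 15.95% of the Smad3-KO cells, whose median depth was 1018 UMIs. With each cell thinned to 500 UMIs these shares were 15.1% (13.5 to 16.8) and 10.3% (8.56 to 12.3), so the share of cells and the summed level pointed in opposite directions.

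T or NK-like cells, which in mice lack class II, were taken as a guide to RNA from other cells. Their median depths were 3258 and 1364.5 UMIs. Thinned in the same way, 32.2% (20.6 to 45.6) of the 59 Smad3-WT and 11.6% (8.86 to 14.9) of the 464 Smad3-KO T or NK-like cells had a member UMI. The shares of neutrophil-like cells were at or below these. In Smad3-WT, macrophage and monocyte markers summed to 1486 and 1965 CPM in T or NK-like cells, against 323 and 448 CPM in neutrophil-like cells. In Smad3-KO these sums were 469 and 671 CPM against 326 and 863 CPM. A share of cells cannot tell such background from expression in few cells, and which of them the neutrophil-like UMIs were was not tested. The 55 highest of the Smad3-KO neutrophil-like cells held 93.8% of the class II UMIs of their class, and without them the level was 102 CPM. In Smad3-WT the 91 highest cells held 70.6%, and 241 CPM remained. B cell markers summed to 1.25 CPM in Smad3-WT and 153 CPM in Smad3-KO neutrophil-like cells, with 1 and 10 of the 10 detected. The H2-Eb1 to H2-Aa quotient followed the library in this class too. The 2 libraries also filled different neutrophil-like clusters, since 847 of the Smad3-KO cells lay in a cluster with 17 Smad3-WT cells. In 2 clusters that held over 30 cells of each, the ratio of the member sum was 0.212 (0.136 to 0.316) and 2.57 (1.80 to 3.58). Both rested on few cells. In the first, 1 Smad3-WT cell held 238 of 596 UMIs, and without the highest 5% of cells the levels were 153 CPM in Smad3-WT and 75.6 CPM in Smad3-KO. In the second, 1 Smad3-KO cell held 34 of 42 UMIs, and without the highest 5% of cells the levels were 163 and 176 CPM. Of the 6 members with at least 20 UMIs in neutrophil-like cells, H2-Aa, H2-Ab1 and H2-DMa were at least 2-fold higher in Smad3-KO (7.88% of 6117 genes) and H2-Eb1 at least 2-fold lower (16.2%).

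**Figure D4:**
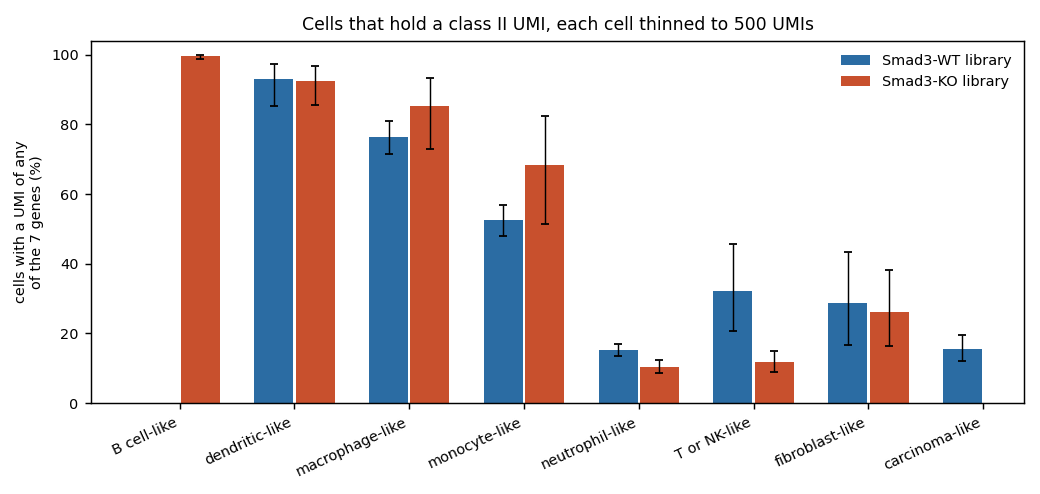
Share of cells (percent) with at least 1 UMI of any member after each cell was thinned to 500 UMIs, by class and library, with 95% exact binomial intervals; pools under 30 cells are left out. B cell-like (99.6%) and dendritic-like cells (92.9% and 92.5%) stand high, and neutrophil-like cells (15.1% and 10.3%) stand at or below T or NK-like cells (32.2% and 11.6%).

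The other genes of the pathway were taken from a list of 28, of which 26 were in the matrix and H2-Ea and Ifi30 were not. In dendritic-like cells 21 had at least 20 UMIs, and Ctsl was at least 2-fold higher in Smad3-KO while H2-Ob, Cd80 and Cd40 were at least 2-fold lower. Within conventional type 2-like cells Ctsl went the other way, with 27 UMIs in Smad3-WT and 0 in the 9 Smad3-KO cells. In macrophage-like cells 22 were measured, with 3 higher (H2-DMb2, Creb1 and Jak1) and 4 lower (Ctsl, Marchf8, Cd86 and Socs1). In monocyte-like cells 20 were measured, with 5 higher (H2-DMb2, Rfxap, Lgmn, Cd40 and Jak2) and 4 lower (Nfyb, Ctsl, Cd80 and Cd86). Of all genes, 8.82% to 16.1% were past the fold in these comparisons. In neutrophil-like cells 5 of 20 measured were higher (7.88% of all genes) and 1 lower (16.2%). In conventional type 2-like cells 2 of 13 were higher (10.8%) and 5 lower (18.4%). Mature dendritic-like cells had 0 of 11 higher (10.8%) and 3 lower (12.6%), and T or NK-like cells 1 of 18 (11.1%) and 4 (12.5%). Over all cells 8 of 26 were higher (16.4%) and 3 lower (14.8%). Whether the list differed from all genes was not tested.

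Among the proteases, Ctss, which trims Cd74 in B cells, dendritic cells and macrophages, was at 1817 and 2872 CPM in macrophage-like cells (1.58, 1.42 to 1.75). Ctsl, a lysosomal cathepsin, was at 1162 and 380 CPM there (0.327, 0.245 to 0.428). The costimulatory ligand Cd80, which T cells read together with class II, was at 118 and 10.3 CPM in dendritic-like cells (0.0871, 0.0228 to 0.237), with few UMIs in Smad3-KO. Cd80 was also at least 2-fold lower over all cells and in monocyte-like, neutrophil-like and T or NK-like cells. In these comparisons 14.8%, 15.4%, 16.2% and 12.5% of all genes were. In macrophage-like cells it was not among the genes past the fold. Cd40, through which T cells license dendritic cells, was at 644 and 164 CPM in mature dendritic-like cells (0.254, 0.151 to 0.414). In the interferon-gamma arm, which induces Ciita, Irf1 was at 151 and 300 CPM in dendritic-like cells (1.99, 1.45 to 2.74). H2-Oa and H2-Ob, the chains of the DM inhibitor H2-DO, were at 336 and 238 CPM in Smad3-KO B cell-like cells and H2-Oa had 2 UMIs in the macrophage-like cells of each library.

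The authors' 13 clusters, made on all barcodes of both libraries together, gave each gene 1 average per cluster with no replicate, on a scale of 1311 UMIs per cell. H2-Aa was highest in cluster 13, at 12.3, where Flt3 and Ccr7 were also highest, and next in cluster 8, at 10.8, where Cd79a was highest. Clusters 7 and 12, the 2 highest for C1qa, followed at 5.26 and 3.77, and cluster 5, the highest for Ly6c2, stood at 1.52. The other 8 clusters were at 0.865 or below. H2-Eb1 had another order, led by cluster 7 at 3.32, then cluster 13 at 1.46 and cluster 12 at 1.42, with cluster 8 at 0.350. Per unit of H2-Aa this was 0.631 in cluster 7 and 0.0325 in cluster 8. In the classes named here, B cell-like cells were 2 in Smad3-WT and 556 in Smad3-KO, and macrophage-like cells 327 and 54. Since each average pools both libraries, cell type and library cannot be told apart in this order of H2-Eb1.

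**Figure D5:**
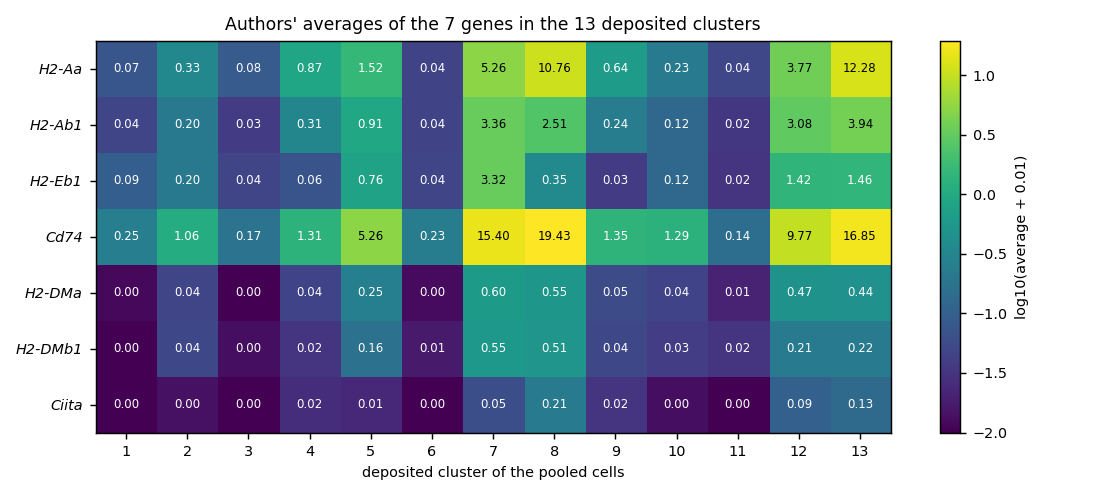
The authors' average of each member (UMIs per cell on a scale of 1311) in their 13 clusters, printed in each cell of the grid and colored by log10(average + 0.01). Cluster 13 leads for H2-Aa (12.3) and cluster 8 for Cd74 (19.4), while H2-Eb1 peaks in cluster 7 (3.32) and is at 0.350 in cluster 8. Each average pools cells of both libraries, so cell type and library cannot be told apart.

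Across the 15 pools of a class and library with at least 30 cells, 6 members followed the member sum, with Pearson's r on the log2(CPM + 5) scale from 0.894 for Ciita to 0.997 for Cd74, while H2-Eb1 had 0.611. These pools share libraries, and the members are part of the sum, so the values are a description. The other genes most like the sum, of 7353 compared, were Rnase6 (0.903), Pdcd2l (0.897), Cd40 (0.892), Cd83 (0.892), Fgd2 (0.881), Pkib (0.874), Irf8 (0.873), Pld4 (0.873), Tyk2 (0.870) and Cbfa2t3 (0.868). H2-Aa and H2-Eb1 had an r of 0.418 with each other, against 0.978 for H2-Aa and H2-Ab1.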

How the data were processed

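Cells sorted as TANs were measured in 1 Smad3-WT and 1 Smad3-KO library. The authors ran Cell Ranger 3.0.2 on mm10, and the matrix they deposited holds counts of UMIs, not normalized, for each barcode called as a cell. The authors' deposited table of 13 clusters holds averages, a signal per gene on a scale of 1311 UMIs per cell. Its log2 fold changes and p-values were made by the authors and were not used. Barcodes were given a genotype from the authors' named averages, which equal the scaled sums of UMIs of 1 barcode suffix (largest difference 3.58e-08 over 19114 genes).

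Cells had at least 200 genes, under 10% mitochondrial UMIs and between 500 and 20000 UMIs, as in the study. The class II genes were set aside, and logged counts of 1995 variable genes (10000 UMIs a cell) were reduced to 100 components, linked to 20 neighbours and split by Louvain clustering (resolution 2.0, igraph 0.11.9, scikit-learn 1.9.0, seed 1) into 18 clusters. The setting was chosen after the clusters were seen, for how well it parted the classes. Names are "like" names, which need at least 3 markers at 2-fold in 10% of cells, and, being rebuilt here, may part from the study's own. No doublet caller was run, and droplets with UMIs of another lineage were left out as an alternative. CPM carry exact Poisson intervals, ratios exact intervals from the binomial split, and shares Clopper-Pearson intervals (scipy 1.17.1). Log2 ratios, ranks and calls of 2-fold had a small constant added to both counts, and the printed ratios did not. Named genes are the members, a pathway list, markers, the 10 genes most like the member sum and chromosomal neighbours, the last chosen after their values were seen. Members and lists were chosen with earlier results of these data known. Alternatives covered filters, thinning, weighting, scaling, clustering, shared barcodes and mixed droplets.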

Additional observations from a re-analysis of the deposited data

Results flagged for a closer look

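Several members had ratios of Smad3-KO to Smad3-WT on opposite sides of 1 in different cell classes, each with a counting interval that left out 1. H2-Ab1 was at 0.762 in dendritic-like cells but at 1.65 in macrophage-like and 3.22 in monocyte-like cells. Cd74 was at 0.596 in dendritic-like and 1.78 in monocyte-like cells, H2-DMa at 0.445 in dendritic-like and 1.40 in macrophage-like cells, and Ciita at 0.534 in dendritic-like and 2.70 in macrophage-like cells. The member sum was at 0.657 in dendritic-like, 1.17 in macrophage-like and 2.23 in monocyte-like cells. With 1 library per genotype these differences between classes were not tested. Some turned under an alternative, since with class II genes kept for clustering H2-Ab1 reached 1.02 and Ciita 1.19 in dendritic-like cells and H2-DMa 0.965 in macrophage-like cells, and as a mean over cells the macrophage-like sum was 0.905. That clustering named 30 Smad3-WT and 64 Smad3-KO cells dendritic-like, against 85 and 106 here. It named 185 and 27 cells macrophage-like, against 327 and 54, so both classes were different sets of cells. The dendritic-like class held different subtypes in the 2 libraries, and within its conventional type 2-like cells the sum was at 1.02.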

How the results depend on the processing

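No paired analysis was possible because each genotype has 1 library and no test was run. The low H2-Eb1 level of Smad3-KO held its direction in dendritic-like, macrophage-like and monocyte-like cells under each alternative that gave a value. The ratio of the member sum, given for all, macrophage-like, monocyte-like, dendritic-like and neutrophil-like cells in this order, was 2.66, 1.85, 2.43, 0.639 and 2.69 with no filter on cells, 1.84, 0.911, 1.83, 0.639 and 1.47 with cells thinned, 1.81, 0.905, 1.99, 0.618 and 1.49 as a mean over cells, 1.41, 1.02, 1.84, 0.604 and 2.32 with median-of-ratios scaling, 1.28, 1.28, 1.86, 0.527 and 1.64 without mixed droplets, and 1.70, 1.34, 2.42, 0.762 and 2.18 without H2-Eb1. With S100a8, S100a9 and Igkc not counted as signs of a mixed droplet, which was chosen after seeing the data, it was 1.24, 1.13, 2.07, 0.479 and 1.64. Totals without mitochondrial and ribosomal protein genes moved it to 1.44 in all, 2.35 in monocyte-like and 0.675 in dendritic-like cells. Keeping class II genes for clustering gave 1.41 in macrophage-like, 0.735 in dendritic-like and 2.28 in neutrophil-like cells, 30 components gave 1.54, 2.08 and 0.617 in macrophage-like, monocyte-like and dendritic-like cells, lower resolution gave 0.483 in dendritic-like and 2.64 in neutrophil-like cells, and another seed gave 1.25, 2.37 and 2.26 in macrophage-like, monocyte-like and neutrophil-like cells. All 3 monocyte and macrophage clusters together gave 1.73, and all cells without shared barcodes 1.53. No monocyte-like cluster formed with class II genes kept or at lower resolution.

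The Smad3-KO share held by B cell-like cells was 71.9% thinned, 71.8% as a mean over cells, 48.1% at lower resolution, 49.8% with another seed, 70.9% and 68.6% without mixed droplets in the planned and the added form, and 51.1% without shared barcodes. The Smad3-WT share held by macrophage-like cells was, for the same first 4 settings, 43.2%, 43.2%, 47.4% and 50.3%, then 59.4% and 57.2% without mixed droplets, 56.6% with no filter, 12.5% with class II genes kept, 47.2% with 30 components and 47.9% without H2-Eb1. The H2-Eb1 to H2-Aa quotient of Smad3-KO over that of Smad3-WT was 0.0155, 0.0274 and 0.0598 in dendritic-like, macrophage-like and monocyte-like cells. It moved in monocyte-like cells to 0.0167 thinned, 0.0143 with 30 components, 0.101 without mixed droplets and 0.0341 with all 3 clusters, and in dendritic-like cells to 0.00953 in the added form of that filter. Pairs of a member and a class past 2-fold, in either direction, were 11 over the 3 classes and 6 when thinned. Thinned cells hold fewer UMIs, so fewer pairs may have had enough UMIs to be counted. The share of all genes past 2-fold in thinned cells is not given, so these counts are not read against it. With class II genes kept, H2-DMa turned to 0.965 in macrophage-like cells, and H2-Ab1 to 1.02, H2-DMb1 to 1.19 and Ciita to 1.19 in dendritic-like cells. Both classes were smaller there, with 185 and 27 macrophage-like and 30 and 64 dendritic-like cells. H2-Aa turned to 0.957 in dendritic-like cells in the added form of the filter on mixed droplets. The causes were not tested.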
